A study of Mus musculus with 18 samples.

Results

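The T-box factors are DNA-binding proteins that share a conserved domain, the T-box. Transcripts of 8 of them, Tbx1, Tbx2, Tbx3, Tbx4, Tbx5, Tbx15, Tbx18 and Tbx20, were followed through 18 arrays of sorted mouse dermal cells. They were taken by gene symbol from the 18193 genes that had a probe set with 1 symbol on the Affymetrix Mouse Genome 430 2.0 array. Where a gene had several probe sets, the one brightest on average across the 18 arrays gave its values, and the remaining ones served as a check. The 8 genes had 18 such probe sets in all, and 6 of the genes had more than 1.

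The study compared dermal cells by embryonic lineage and by body site, in 6 groups of 3 arrays each. EPF and ENF cells were taken from the dorsal dermis of En1Cre; R26mTmG mice, EPF as green and not red cells and ENF as red and not green cells. In this reporter, Cre recombination switches a cell and all its descendants from red to green fluorescence, so EPF cells descend from cells that once drove Cre from the Engrailed-1 locus and ENF cells do not. Oral cells (oral mucosa) and Cranial cells (cranial dermis) were green cells of Wnt1Cre; R26mTmG mice, in which Cre marks the neural crest among other Wnt1-expressing cells. Ventral and Dorsal cells were green cells of En1Cre; R26mTmG mice, from ventral and from dorsal dermis. Every mouse thus carried the reporter and a Cre transgene, no group was treated, and every sort left out cells positive for EpCAM, DAPI, Tie2, CD45, CD31 or a marker spelled Tie119 in the labels. The labels give postnatal day 56 for EPF and ENF and postnatal day 30 for the 4 site groups, but the protocols name 30 days for skin of the back, and the sources used here do not settle which holds. Nothing in the labels says whether the 3 arrays of a group came from separate animals or from pooled ones, so p-values measure the spread between these arrays, which may be technical.

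T-box factors pattern the limbs, the heart, the pharyngeal arches and the body wall of the embryo. Some, such as Tbx2 and Tbx3, mainly repress their targets, while others, such as Tbx5, mainly activate them. In skin, mouse Tbx15 is known for placing the dorsoventral boundary of coat colour through the dermis, and Tbx18 is known as a gene of dermal papilla precursors and of mural cells, the pericytes and smooth muscle of vessels. Adult fibroblasts of different body sites keep part of the embryo's positional code in their transcription factors.

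Levels are on the log2 scale after RMA, so that a difference of 1 is a doubling. The lower quartile of each array lay between 3.93 and 4.10. A group mean at or below 4.10 is called near background, and a difference from such a mean understates the change. The arrays formed 2 sets. Correlations across genes were 0.962 to 0.988 within the EPF and ENF arrays, 0.946 to 0.998 within the site arrays and 0.872 to 0.926 between them, so the labelled age, the array set and the group cannot be told apart across these sets. All 8 fibroblast markers examined (Pdgfra, Pdgfrb, Col1a1, Col1a2, Col3a1, Dcn, Lum and Thy1) were above background in every group, with a mean level per array from 11.72 to 13.68. Keratinocyte markers were also present in the ENF arrays and in EPF 1 and EPF 3 although EpCAM-positive cells had been sorted out. Their mean in EPF 2, 4.86, lay within the range of the site arrays. The mean of 8 such markers was 4.86 to 8.69 in EPF arrays and 8.06 to 10.57 in ENF arrays, against 4.83 to 5.11 in the 12 site arrays, where Trp63 and Cdh1 were near background in all 4 groups. Epcam, also among the 8, was above background in every group, with means from 8.43 in Dorsal to 9.11 in EPF. In such bulk samples fewer cells of a type and less RNA per cell cannot be told apart.

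Of the 8 genes, Tbx15 and Tbx18 were well above background in every group, and Tbx4 and Tbx20 stayed at the dim end of the array throughout. Tbx1, Tbx2, Tbx3, Tbx5 and Tbx15 were called between sites, and none of the 8 between EPF and ENF. Over 8 comparisons, 14 of 64 pairs of gene and comparison passed limma at an adjusted p under 0.05. Of all genes, 0.0275% (Ventral against Dorsal) to 18.7% (Cranial against Dorsal) passed in a comparison. Of the 8 genes, 5 were called in at least 1 comparison, for which no share over all genes was counted. Levels of different genes are not set against each other, since each probe set has its own brightness.

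**Figure D1:**
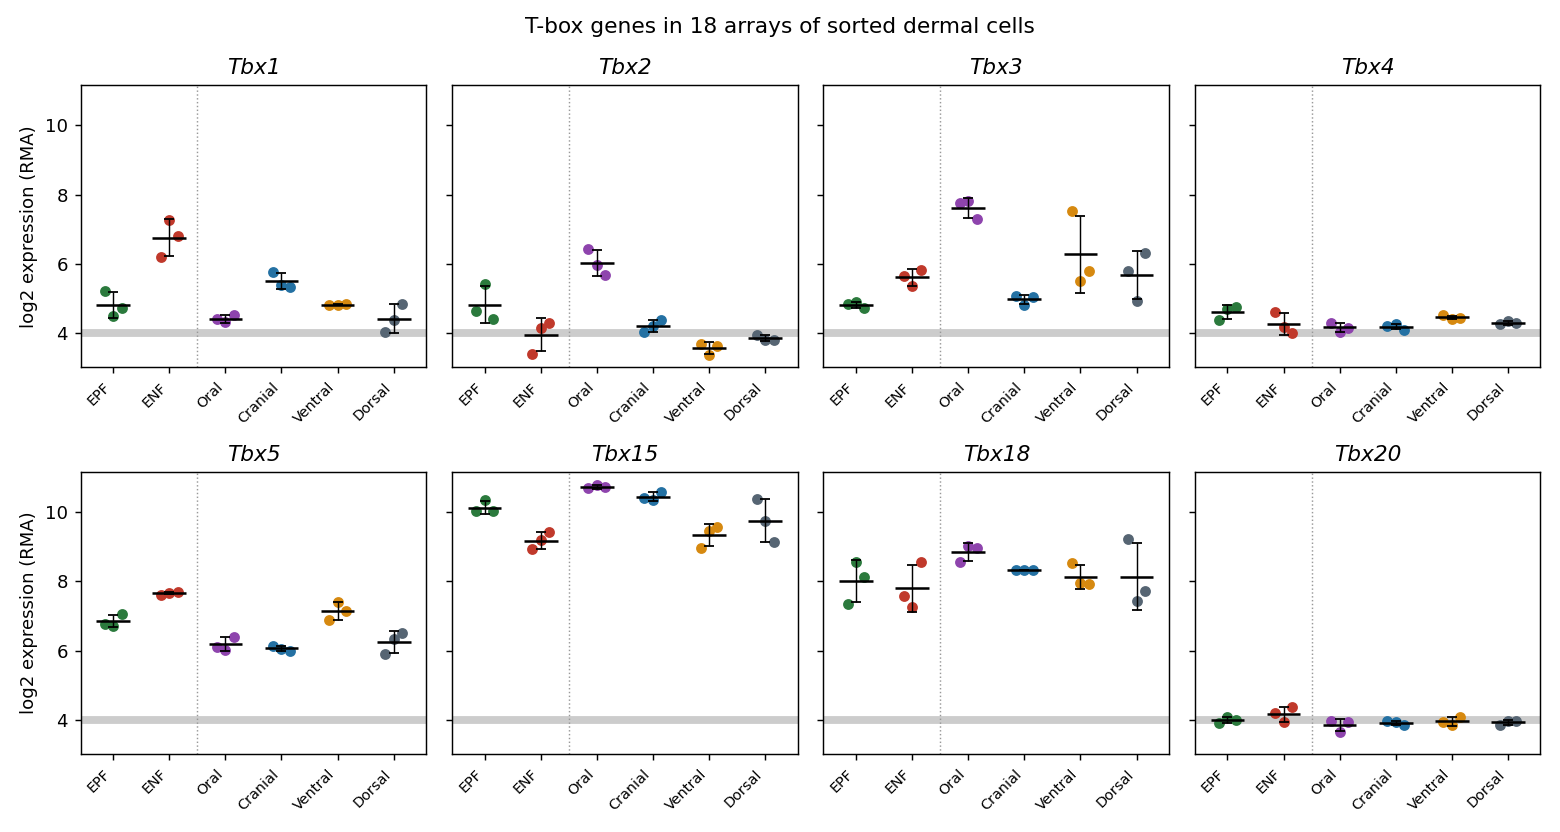
Log2 expression (vertical axis, RMA) of 8 T-box genes in EPF, ENF, Oral, Cranial, Ventral and Dorsal cells, 1 point per array, with the mean (bar) and SD (whisker) of 3 arrays; the grey band spans the lower quartiles of the arrays (3.93 to 4.10) and the dotted line parts the 2 array sets. Tbx2 and Tbx3 are highest in Oral, Tbx1 in ENF, Tbx5 in ENF and then Ventral, Tbx4 has all 6 means above the band (4.17 to 4.61), and Tbx20 lies around it (means 3.87 to 4.17).

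Tbx15 was above background in all 18 arrays and higher in the head groups than in Ventral. It measured 10.68, 10.79 and 10.71 in Oral 1 to 3 and 10.41, 10.33 and 10.58 in Cranial 1 to 3. It measured 8.97, 9.46 and 9.57 in Ventral 1 to 3 and 10.38, 9.74 and 9.13 in Dorsal 1 to 3. All 6 head arrays lay above all 3 Ventral arrays, while Dorsal 1 overlapped the Cranial range and Dorsal 2 and Dorsal 3 lay below it. Against Ventral, Tbx15 was 2.62-fold higher in Oral (log2 difference 1.39 ± 0.26, SE, adjusted p = 0.00549 by limma) and 2.16-fold higher in Cranial (1.11 ± 0.26, adjusted p = 0.0159). Against Dorsal it was 1.96-fold higher in Oral (0.97 ± 0.26, adjusted p = 0.0286), and Cranial stood at 10.44 ± 0.13 against 9.75 ± 0.63 in Dorsal (SD, n = 3), which was not called by limma (adjusted p = 0.0955). Ventral stood below Dorsal by -0.42 ± 0.26 (95% interval -1.0 to 0.16), with overlapping arrays, and was not called (limma adjusted p = 0.662).

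The contrasts of Tbx15 with the trunk groups depended on single arrays to different degrees. Without Dorsal 1, the difference of Tbx15 was 1.29 for Oral against Dorsal (limma adjusted p = 0.000914) and 1.01 for Cranial against Dorsal (adjusted p = 0.00369). Leaving out any other array of Oral or Dorsal ended the call of Oral against Dorsal, with adjusted p of 0.0557 to 0.093 and a difference of 0.66 without Dorsal 3. For Cranial against Ventral the call was lost without Cranial 1, Cranial 3 or Ventral 1 (limma adjusted p = 0.0524, 0.0668 and 0.0572), and for Oral against Ventral it was kept without each array in turn. The other probe set of Tbx15 was dim, with group means from 4.40 in Cranial to 5.14 in Dorsal, and did not show the same pattern: in a fit of all 34945 probe sets it was lower in Cranial than in Dorsal (-0.74 ± 0.19, limma adjusted p = 0.0217). With the mean of both probe sets as the gene's value, none of the 3 calls of Tbx15 held, at limma adjusted p of 0.298 for Oral against Dorsal, 0.0643 for Oral against Ventral and 0.364 for Cranial against Ventral.

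Within the back, Tbx15 was at 10.02, 10.33 and 10.02 in EPF 1 to 3 and at 8.92, 9.18 and 9.42 in ENF 1 to 3. The groups did not overlap, and the difference of 0.95 ± 0.19 had an adjusted p of 0.113 in limma, so it was not called. It was called in 0 of 14 alternative settings, at adjusted p from 0.0545 to 0.463 and differences from 0.32 to 1.07. The dim second probe set of Tbx15 differed the other way, by -0.31 ± 0.22, with overlapping arrays. It was not called in the fit of all probe sets (limma adjusted p = 0.69).

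A list of dermal pigment pattern genes was followed beside Tbx15, and whether its genes act with Tbx15 was not tested. Of 7 dermal pigment pattern genes (a, Kitl, Edn3, Hgf, Corin, En1 and Lmx1b), none was called for Ventral against Dorsal. In Cranial against Ventral 0 were higher and 2 lower, beside 11.7% and 6.2% of all genes. In Oral against Ventral 0 were higher and 1 lower, beside 10.3% and 4.31%. The agouti gene a, whose secreted product turns melanocytes to yellow pigment, was lower by a log2 difference of -1.05 ± 0.23 in Cranial (4.80 ± 0.26) than in Ventral (5.85 ± 0.52), with a limma adjusted p of 0.0117. It was lower by -1.09 ± 0.23 in Oral (4.76 ± 0.06) than in Ventral, with a limma adjusted p of 0.0105. Edn3, an endothelin ligand of melanocytes, was lower in Cranial than in Ventral by -0.39 ± 0.10 (limma adjusted p = 0.0214). The median of the 7 genes was -0.29 for Cranial against Ventral, beside -0.06 over all genes. Of 4 melanocyte markers (Mlana, Dct, Pmel and Tyr), 2 were lower and 0 higher in each of these comparisons with Ventral, and Tyr was near background in every group. Their mean per array was 4.63 to 4.67 in Oral, 4.57 to 4.89 in Cranial and 4.98 to 5.38 in Ventral. Mlana was at 4.83 ± 0.19 in Oral and 5.08 ± 0.19 in Cranial, against 6.14 ± 0.59 in Ventral, and the part of melanocytes in the pigment gene differences was not tested.

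Tbx18 was measured at 7.34, 8.55 and 8.14 in EPF 1 to 3 and at 7.57, 7.27 and 8.55 in ENF 1 to 3. It was at 8.56, 9.01 and 8.97 in Oral 1 to 3, at 8.32, 8.33 and 8.33 in Cranial 1 to 3, at 8.54, 7.94 and 7.92 in Ventral 1 to 3 and at 9.23, 7.44 and 7.72 in Dorsal 1 to 3. The 3 Oral arrays lay above the Cranial and Ventral arrays, while Dorsal 1 was the highest of all 18 arrays and the other Dorsal arrays were among the lowest. No difference of Tbx18 was called by limma in any of the 8 comparisons. Oral stood 0.52 ± 0.38 above Cranial (95% interval -0.32 to 1.35, adjusted p = 0.898), 0.71 ± 0.38 above Ventral (-0.13 to 1.54, adjusted p = 0.245) and 0.71 ± 0.38 above Dorsal (-0.12 to 1.55, adjusted p = 0.237). Without Dorsal 1 the last of these was 1.26 and was called (limma adjusted p = 0.000914), and over its 14 alternatives the adjusted p ran from 6.33e-06 to 0.569. The other Tbx18 probe set had its highest mean in Oral as well, 6.10 ± 0.23 against 5.08 to 5.23 in the other site groups, and was not called there by limma (adjusted p over probe sets of 0.461, 0.0603 and 0.0874 against Cranial, Ventral and Dorsal).

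Markers of the cell types that Tbx18 is known for were set beside it. The mean of 6 mural markers (Rgs5, Myh11, Acta2, Cspg4, Mcam and Cnn1) was 8.81 to 9.05 in EPF and 7.04 to 7.24 in ENF, while Tbx18 differed by 0.22 between these groups (EPF 8.01 ± 0.62, ENF 7.79 ± 0.67). Among the sites it was 7.60 to 7.82 in Oral, 7.46 to 7.55 in Cranial, 7.63 to 8.81 in Ventral and 7.15 to 7.89 in Dorsal, with Myh11 near background in Oral, Cranial and Dorsal. The mean of 7 dermal papilla markers was 6.09 to 7.43 in EPF and 4.78 to 5.31 in ENF, and Sox2 and Corin were near background in ENF and in all 4 site groups. Within EPF and Dorsal the arrays high or low in Tbx18 were so in the dermal papilla mean, which was 6.09, 7.43 and 7.33 in EPF 1 to 3 and 6.09, 5.29 and 5.55 in Dorsal 1 to 3. Within ENF this did not hold: ENF 2 was lowest in Tbx18 and highest in the dermal papilla mean (5.31, against 4.78 in ENF 1 and 4.98 in ENF 3). Within Ventral, array 1 was highest in Tbx18 and in the mural mean (8.81, against 7.70 and 7.63 in Ventral 2 and 3) and lowest in the dermal papilla mean (5.28, against 6.23 and 6.33). The part of these cell types in the Tbx18 levels was not tested.

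Tbx1 is a regulator of the pharyngeal arches and of head muscle, and its loss underlies much of the human DiGeorge syndrome. It is the gene of the set with the widest gap within the back skin, and 2 of its transcription starts have a promoter window in RefSeq (GRCm38.p6), so their sequences are shown. Each runs 5′ to 3′ on the minus strand from 250 bases before to 50 after a start, with capitals at each match to the GC box GGGCGG or its reverse complement CCGCCC. They lie at chr16:18588850-18589149 (start A) and chr16:18590622-18590921 (start B).
Tbx1 start A: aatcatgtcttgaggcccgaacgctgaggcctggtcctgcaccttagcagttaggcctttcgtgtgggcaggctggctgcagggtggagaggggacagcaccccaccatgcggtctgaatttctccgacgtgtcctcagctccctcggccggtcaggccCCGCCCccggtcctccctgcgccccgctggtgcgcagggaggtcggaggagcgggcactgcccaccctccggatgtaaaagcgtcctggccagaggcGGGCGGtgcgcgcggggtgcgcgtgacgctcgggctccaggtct
Tbx1 start B: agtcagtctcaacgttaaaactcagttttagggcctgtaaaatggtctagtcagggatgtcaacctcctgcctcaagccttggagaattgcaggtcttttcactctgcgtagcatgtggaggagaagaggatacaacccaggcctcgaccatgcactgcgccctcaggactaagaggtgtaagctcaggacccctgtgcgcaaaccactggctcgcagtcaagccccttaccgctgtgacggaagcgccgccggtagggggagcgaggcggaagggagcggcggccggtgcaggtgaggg
The start A window was 69.0% G or C with 26 CpG and 2 GC box matches, and the start B window 58.3% with 16 CpG and 0 matches, where the median of 32851 RefSeq promoter windows was 52.7% with 7 CpG and 35.7% of them held a GC box. Neither holds the T-box core GGTGTGA or its reverse complement TCACACC, which 3.98% of all windows hold. Of the 8 genes, 4 (Tbx1, Tbx4, Tbx18 and Tbx20) had a window in the table, and none of their 5 windows held that core. These matches are descriptions of letters, and the array does not tell which start was used.

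In the back skin, Tbx1 was at 5.22, 4.51 and 4.72 in EPF 1 to 3 and at 6.20, 7.27 and 6.82 in ENF 1 to 3. Every EPF array lay below every ENF array, with means of 4.81 ± 0.37 in EPF and 6.76 ± 0.54 in ENF, a difference of -1.95 ± 0.30 (95% interval -2.65 to -1.24). The limma adjusted p was 0.0615, so the gene was not called, and it was called in 5 of 14 alternatives, with adjusted p from 0.000595 to 0.273. Leaving out ENF 1, where Tbx1 was the lowest of the ENF arrays, gave a difference of -2.23 and a limma adjusted p of 0.0337. Tbx1 had 1 probe set, so no second measurement was at hand.

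Other cell types moved with the same contrast. The 8 keratinocyte markers averaged 8.69, 4.86 and 6.89 in EPF 1 to 3 and 8.06, 10.44 and 10.57 in ENF 1 to 3, so the groups overlapped in this mean. All 8 had group means above background in both groups, but the lowest EPF array was at 3.91 for Krt15, 3.94 for Perp and 3.38 for Dsp and for Cdh1. The median difference of the 8 was -3.32, and 1 of them, Trp63, a factor of basal keratinocytes, was called lower in EPF, without overlap: it was at 4.42 to 5.12 in EPF arrays and 8.58 to 9.78 in ENF arrays (-4.13 ± 0.35, limma adjusted p = 0.00591). The 6 skeletal muscle lineage markers averaged 4.79, 4.45 and 4.55 in EPF 1 to 3 and 5.98, 5.81 and 6.78 in ENF 1 to 3, without overlap. Myf5, a factor of muscle precursors, was near background in EPF at 2.92 ± 0.08 and at 7.89 ± 0.98 in ENF, and Myh4 was near background in both groups. EPF 1 and ENF 1 stood at 8.69 and 8.06 in the keratinocyte mean and at 5.22 and 6.20 for Tbx1. Within EPF, Tbx1 and the keratinocyte mean ranked the arrays alike. ENF 1 was the lowest ENF array in both, while ENF 2 and ENF 3 changed order. The part of these cell types in the Tbx1 difference was not tested.

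**Figure D2:**
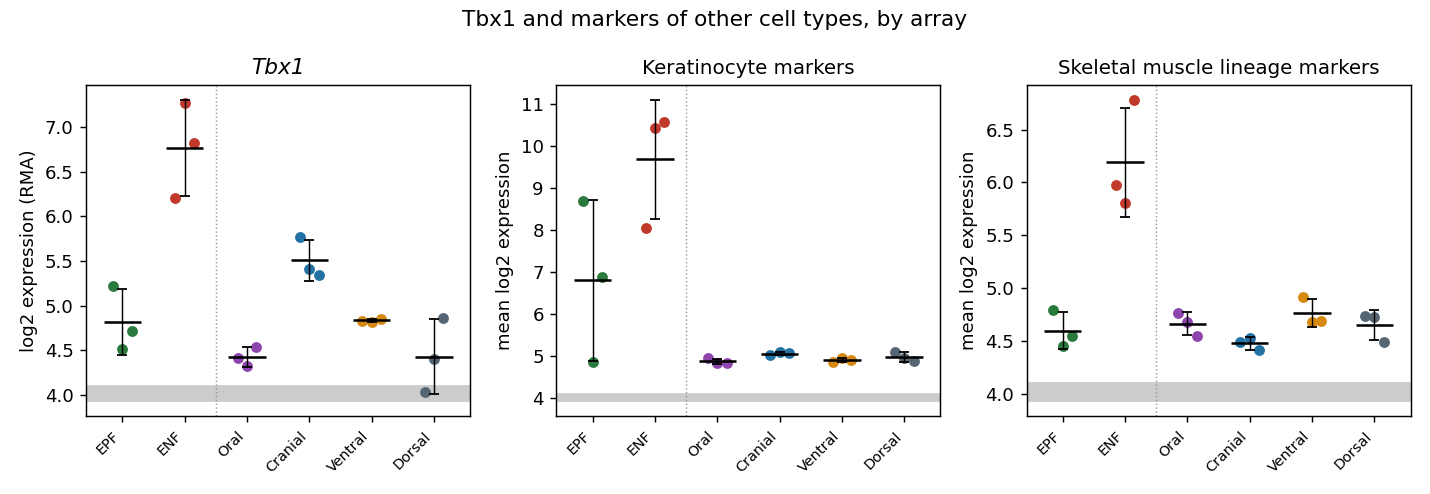
Log2 expression of Tbx1 (left) and mean log2 level of 8 keratinocyte markers (middle) and 6 skeletal muscle lineage markers (right) in 18 arrays, by group, with mean and SD of 3 arrays; each panel has its own vertical scale and the grey band spans the lower quartiles of the arrays. Tbx1 and the mean of the muscle markers part EPF from ENF without overlap, while the keratinocyte mean of EPF 1 (8.69) lies above that of ENF 1 (8.06).

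Among the sites Tbx1 was highest in Cranial, at 5.77, 5.41 and 5.34 in Cranial 1 to 3. It was at 4.41, 4.32 and 4.54 in Oral 1 to 3, at 4.83, 4.82 and 4.85 in Ventral 1 to 3 and at 4.03, 4.40 and 4.86 in Dorsal 1 to 3. No Cranial array overlapped another site, and the neighbours below it in order, Ventral, Dorsal and Oral, were not called against each other by limma (adjusted p = 0.18 for Oral against Ventral, 0.593 for Ventral against Dorsal and 0.984 for Oral against Dorsal). Tbx1 was 2.12-fold lower in Oral than in Cranial (-1.09 ± 0.19, limma adjusted p = 0.0186) and, in Cranial, 2.11-fold higher than in Dorsal (1.08 ± 0.19, adjusted p = 0.00351) and 1.60-fold higher than in Ventral (0.68 ± 0.19, adjusted p = 0.032). The call against Dorsal held without each array in turn and was lost in a fit on the 6 arrays of the pair alone (limma adjusted p = 0.0537, range over its alternatives 2.91e-06 to 0.0537). The calls of Oral against Cranial and of Cranial against Ventral were each lost without any 1 of their 6 arrays, at limma adjusted p of 0.0524 to 0.11 and 0.0589 to 0.128. Keratinocyte markers averaged 5.03 to 5.09 in Cranial and 4.83 to 5.11 in the other sites, and muscle lineage markers 4.41 to 4.53 in Cranial against 4.49 to 4.92 in the others. A single keratinocyte marker, Perp, was highest in Cranial as Tbx1 was, at 6.92 ± 0.31, against 5.49 ± 0.10 in Oral, 4.73 ± 0.21 in Ventral and 4.51 ± 0.07 in Dorsal. It was called by limma in all 3 comparisons with Cranial, while Krt15, Trp63, Dsp and Cdh1 were near background in Cranial, and the part of keratinocytes in the Tbx1 difference between sites was not tested.

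Tbx2 and Tbx3, close relatives that act mainly as repressors, were both high in the oral mucosa. Tbx2 was at 6.43, 5.98 and 5.68 in Oral 1 to 3, above all other 15 arrays. It was at 4.05, 4.21 and 4.39 in Cranial 1 to 3, while Ventral (3.58 ± 0.17) and Dorsal (3.86 ± 0.09) were near background. Tbx2 was 3.51-fold higher in Oral than in Cranial (1.81 ± 0.18, limma adjusted p = 0.000363), 4.50-fold higher than in Dorsal (2.17 ± 0.18, adjusted p = 2.79e-05) and 5.48-fold higher than in Ventral (2.45 ± 0.18, adjusted p = 1.05e-05). These 3 calls held in all 14 alternatives of each, with the highest limma adjusted p at 0.00443. Cranial was called above Ventral (0.64 ± 0.18, limma adjusted p = 0.0305) between levels at or close to background, and this call held without Ventral 1 (adjusted p = 0.047) and was lost without any other array of the pair (0.0534 to 0.12).

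In the back, Tbx2 was at 4.65, 5.42 and 4.42 in EPF 1 to 3 and at 3.42, 4.17 and 4.29 in ENF 1 to 3. The groups did not overlap, ENF was near background, and the difference of 0.87 ± 0.32 was not called by limma (adjusted p = 0.383). Tbx2 had 1 probe set.

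Tbx3 was at 7.75, 7.81 and 7.29 in Oral 1 to 3 and at 5.08, 4.82 and 5.04 in Cranial 1 to 3. It was at 7.54, 5.50 and 5.79 in Ventral 1 to 3 and at 5.80, 4.94 and 6.31 in Dorsal 1 to 3. Oral was far above Cranial, and Ventral was split, with Ventral 1 inside the Oral range and the other Ventral arrays within the Dorsal range. Tbx3 was 6.23-fold higher in Oral than in Cranial (2.64 ± 0.48, limma adjusted p = 0.0229) and 3.83-fold higher than in Dorsal (1.94 ± 0.48, adjusted p = 0.0183). Against Ventral the difference of 1.34 ± 0.48 was not called (limma adjusted p = 0.0872), and without Ventral 1 it was 1.98 and called (adjusted p = 0.00394). Cranial stood below Ventral by -1.29 ± 0.48 (limma adjusted p = 0.0842), and Ventral stood 0.59 ± 0.48 above Dorsal (adjusted p = 0.726), which was -0.04 without Ventral 1.

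The call of Tbx3 in Oral against Cranial was lost without any 1 of the 6 arrays, at limma adjusted p of 0.0663 to 0.115 with differences of 2.54 to 2.80. The call against Dorsal was lost without Oral 1, Oral 2 or Dorsal 2 (adjusted p = 0.0618, 0.0701 and 0.0576). In a fit on the 6 Oral and Cranial arrays alone, whose spread is not shared with the wider-ranging Ventral and Dorsal arrays, the Oral against Cranial call held at a limma adjusted p of 4.40e-09, the lowest of its alternatives. Ventral 1 was also the Ventral array with the highest mean of mural markers, 8.81 against 7.70 and 7.63 in Ventral 2 and 3. It had the lowest mean of fibroblast markers, 11.72 against 12.63 and 12.66, and the lowest mean of dermal papilla markers, 5.28 against 6.23 and 6.33. The part of these in its Tbx3 level was not tested.

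The 5 probe sets of Tbx3 fell into 2 kinds. The array maker gives the suffix x to probes that may bind other transcripts too. A probe set with this suffix followed the level of the one used in Oral, Cranial and Ventral. It was at 7.53, 7.43 and 7.37 in Oral 1 to 3 and at 4.76, 4.69 and 4.35 in Cranial 1 to 3. In Ventral 1 to 3 it was at 8.08, 5.06 and 5.62. In Dorsal 1 to 3 it was at 3.92, 4.79 and 6.84, where the one used was at 5.80, 4.94 and 6.31, so the order of the arrays differed. The difference of the probe set with the suffix x for Oral against Cranial was 2.84 ± 0.78. It was not called in the fit of all probe sets (limma adjusted p = 0.193). The other 3 differed between Oral and Cranial by 0.62 ± 0.31, 0.04 ± 0.16 and 0.23 ± 0.11, none of them called, and the dimmest was lower in Cranial than in Ventral (-0.42 ± 0.11, limma adjusted p = 0.0273). With the mean of all 5 as the gene's value, the difference was 1.28 for Oral against Cranial (limma adjusted p = 0.0877) and 0.88 for Oral against Dorsal (adjusted p = 0.0772), neither of them called.

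**Figure D3:**
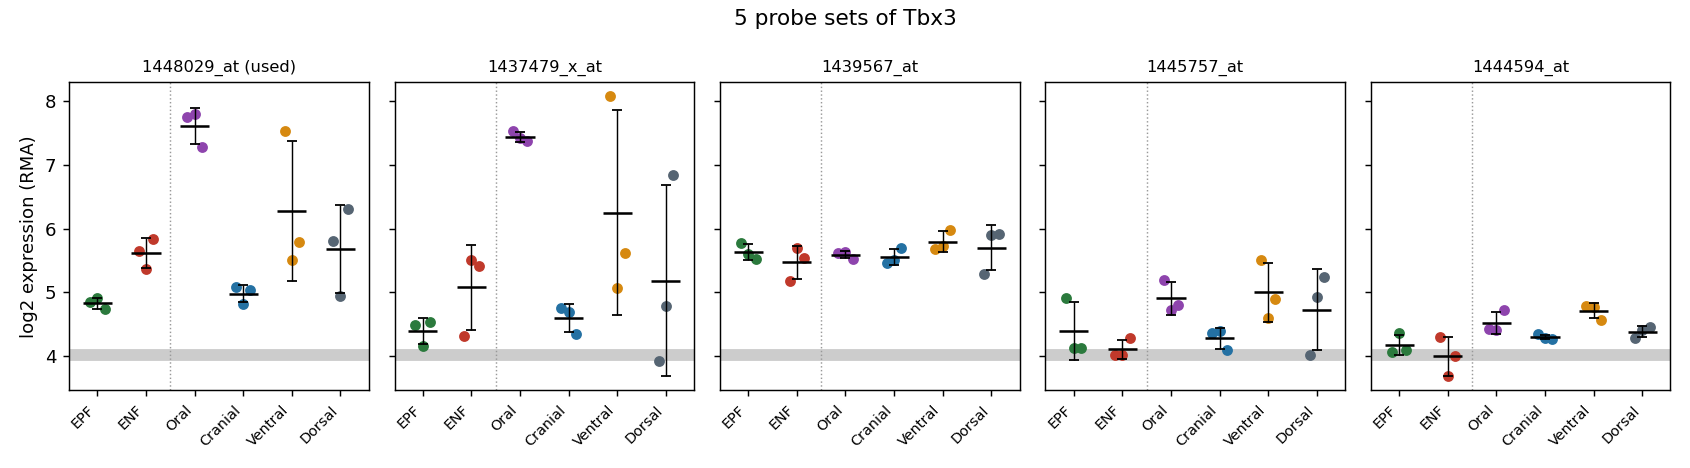
Log2 expression of the 5 probe sets of Tbx3 in 18 arrays by group, with mean and SD of 3 arrays; the grey band spans the lower quartiles of the arrays. The probe set used and the one with the suffix x are high in the 3 Oral arrays and in Ventral 1, at 7.29 to 8.08, while no array of the other 3 is above 5.98.

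In the back, Tbx3 was at 4.84, 4.91 and 4.74 in EPF 1 to 3 and at 5.65, 5.36 and 5.84 in ENF 1 to 3, without overlap and not called by limma (-0.79 ± 0.17, adjusted p = 0.148). Over the alternatives the difference ran from -0.92 to -0.17. The probe set with the suffix x differed by -0.69 ± 0.32, with overlapping arrays. The remaining probe sets differed the other way, by 0.17 ± 0.18, 0.18 ± 0.20 and 0.28 ± 0.24. None of these was called in the fit of all probe sets.

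Tbx4 and Tbx5 are the limb members of the same branch, Tbx5 in the forelimb and the heart and Tbx4 in the hindlimb. In the mouse gene table Tbx2 and Tbx4 are next to each other with 0 protein-coding genes between them, and so are Tbx3 and Tbx5. The neighbours did not share a level pattern here: Tbx2 and Tbx3 were highest in Oral, while Tbx5 was lowest in Cranial and Oral and Tbx4 was dim in every group.

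Tbx5 was at 6.90, 7.40 and 7.15 in Ventral 1 to 3 and at 5.90, 6.34 and 6.52 in Dorsal 1 to 3. It was at 6.12, 6.03 and 6.41 in Oral 1 to 3 and at 6.15, 6.06 and 5.99 in Cranial 1 to 3. The 3 Ventral arrays lay above all 9 other site arrays. Tbx5 was 1.95-fold lower in Oral than in Ventral (-0.96 ± 0.18, limma adjusted p = 0.00497) and 2.12-fold lower in Cranial than in Ventral (-1.08 ± 0.18, adjusted p = 0.00252), and both calls held in all 14 alternatives. Ventral stood 0.89 ± 0.18 above Dorsal (95% interval 0.50 to 1.29), which was not called (limma adjusted p = 0.234). That comparison was called in 1 of 14 alternatives, at adjusted p from 0.000958 to 0.995. The second Tbx5 probe set was dimmer and was called in the same 2 comparisons in the fit of all probe sets, lower in Oral (-0.40 ± 0.09, limma adjusted p = 0.0127) and in Cranial (-0.40 ± 0.09, adjusted p = 0.0108) than in Ventral.

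Within the back, Tbx5 was at 6.78, 6.72 and 7.05 in EPF 1 to 3 and at 7.62, 7.66 and 7.68 in ENF 1 to 3. Every EPF array lay below every ENF array, by -0.80 ± 0.15 on average, and the gene was not called by limma (adjusted p = 0.103). It was called in 1 of 14 alternatives, the fit with all 18 arrays (adjusted p = 0.0166, range over the alternatives 0.0166 to 0.451), and the second probe set differed by 0.08 ± 0.23 the other way.

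Tbx4 had group means from 4.17 in Oral to 4.61 in EPF and no array above 4.75. Tbx20, a factor of the heart, had group means from 3.87 in Oral to 4.17 in ENF, and 5 of its 6 means were near background. Neither was called by limma in any of the 8 comparisons.

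Counted by comparison, 3 of the 8 genes were called for Oral against Cranial, where 1.14% of all genes were called. Tbx2 and Tbx3 were higher in Oral (0.407% of all genes) and Tbx1 was lower (0.731%). For Oral against Dorsal 3 were called (Tbx2, Tbx3 and Tbx15), beside 16.8% of all genes, and all were higher in Oral, beside 10.5%. For Cranial against Dorsal 1 was called, beside 18.7% of all genes, and this was Tbx1, higher in Cranial, beside 11.2%. For Oral against Ventral 3 were called, beside 14.6% of all genes, with Tbx2 and Tbx15 higher in Oral (10.3% of all genes) and Tbx5 lower (4.31%). For Cranial against Ventral 4 were called, beside 17.9% of all genes, with Tbx1, Tbx2 and Tbx15 higher in Cranial (11.7%) and Tbx5 lower (6.2%), and without single arrays this count was 1 or 2. For Ventral against Dorsal 0 of 8 were called by limma, beside 0.0275% of all genes. There 1 gene, Tbx5, had an unadjusted p under 0.05, beside 8.55% of all genes, and array weights called 1. The comparisons between sites share groups and 1 estimate of the spread, so they are not independent of each other.

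For EPF against ENF 0 of 8 were called by limma, beside 0.308% of all genes. At an unadjusted p under 0.05 there were 5 of 8, beside 10.8% of all genes, with Tbx2 and Tbx15 higher and Tbx1, Tbx3 and Tbx5 lower in EPF, and the alternatives called up to 2. The same 5 genes did not overlap between the groups, where 17% of all genes did not. These counts rest on the probe set used for each gene. For Tbx5 and Tbx15 the second probe set differed the other way, as did some of the other probe sets of Tbx3. The median difference of the 8 genes was 0.02, beside 0.00 over all genes. In the X-inactivation RNA Xist, EPF 2 (5.20) and ENF 1 (4.98) stood apart from the other 16 arrays (10.48 to 12.13). Without both, an alternative chosen after seeing the data, 0 of 8 were called. The difference of Tbx1 was then -2.08 (limma adjusted p = 0.136) and that of Tbx2 0.31 (adjusted p = 0.774).

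EPF and Dorsal cells carry the same labels for line, tissue and sort colour but differ in labelled age and array set, which cannot be told apart from the difference between them. Limma called 0 of 8 for EPF against Dorsal, beside 16.8% of all genes. At an unadjusted p under 0.05 there were 3 of 8, beside 29.8% of all genes, and the alternatives called up to 2. Tbx2 stood at 4.83 ± 0.53 in EPF and 3.86 ± 0.09 in Dorsal, where it was near background (0.97 ± 0.27, limma adjusted p = 0.055). Tbx5 stood at 6.85 ± 0.17 in EPF and 6.25 ± 0.32 in Dorsal (0.59 ± 0.21, adjusted p = 0.108), and Tbx3 at 4.83 ± 0.08 in EPF and 5.68 ± 0.69 in Dorsal (-0.85 ± 0.34, adjusted p = 0.146; -1.23 and 0.0255 without Dorsal 2).

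Of the other 9 genes of the family, 7 were measured. Mga, a large protein with a T-box and a further DNA-binding domain that partners Max, had group means from 7.33 in Oral to 8.06 in ENF. It was the only one of the 7 called in any of the 8 comparisons, lower in Oral (7.33 ± 0.12) than in Dorsal (8.03 ± 0.29), by -0.70 ± 0.18 (limma adjusted p = 0.0199). Its other 4 probe sets stood above or level with Dorsal in Oral, by 0.02 to 0.82, and 1 of them was called higher in Oral in the fit of all probe sets (0.44 ± 0.13, limma adjusted p = 0.0448). The other 6, Tbx6, Tbx19, Tbx21, Tbx22, Eomes and Tbr1, had no array above 5.66.

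Of 15 partners and targets from limb and heart development measured, 2 were higher and 0 lower in Oral than in Cranial, beside 0.407% and 0.731% of all genes. The median there was 0.05 beside 0.04 over all genes. Against Dorsal, 3 were higher and 2 lower in Oral (16.8% of all genes called) and 2 higher and 1 lower in Cranial (18.7%). Against Ventral, 2 were higher and 2 lower in Oral (14.6%) and 1 higher and 1 lower in Cranial (17.9%). Pitx1, which specifies the hindlimb and the jaw and acts above Tbx4 in the mouse hindlimb, was 4.87-fold higher in Oral (7.56 ± 0.26) than in Cranial (5.28 ± 0.10), with a limma adjusted p of 1.28e-05. Shox2, a homeobox factor of limb, palate and sinus node, was 3.69-fold higher in Oral (9.98 ± 0.23) than in Cranial (8.10 ± 0.13, limma adjusted p = 0.000246). Tbx4 itself was at 4.17 ± 0.13 in Oral and 4.20 ± 0.08 in Cranial.

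For Ventral against Dorsal 1 of the 15 was higher and 0 lower, beside 0.0275% of all genes called. This was Hand2, a factor of limb polarity and of ventral arches, 5.43-fold higher in Ventral (7.04 ± 0.60) than in Dorsal (4.60 ± 0.43, limma adjusted p = 0.0157). Hand2 was also higher in Cranial (6.54 ± 0.11) than in Dorsal (1.94 ± 0.27, limma adjusted p = 0.00108). Fgf10, a growth factor that Tbx4 and Tbx5 activate in mouse limb buds, was lower in both head groups than in both trunk groups. It fell by 1.18 in Oral against Ventral (5.59 ± 0.22 and 6.77 ± 0.12, limma adjusted p = 0.00491) and by 1.31 in Cranial against Ventral (5.46 ± 0.05 and 6.77 ± 0.12, adjusted p = 0.00265). Against Dorsal it fell by 1.16 in Oral (limma adjusted p = 0.00471) and by 1.29 in Cranial (adjusted p = 0.00284). Tbx5 was lower in Oral and Cranial than in Ventral alone, since Dorsal stood with the head groups for Tbx5 and with Ventral for Fgf10 (6.75 ± 0.52).

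Of 13 other partners and targets measured, 1 was higher and 0 lower in Oral than in Cranial, beside 0.407% and 0.731% of all genes. This was Pax3, a paired-box factor of neural crest, at 8.95 ± 0.08 in Oral and 7.04 ± 0.04 in Cranial (1.92 ± 0.12, limma adjusted p = 1.28e-05). Cdkn2a and Cdkn1a, cell cycle inhibitors that Tbx2 and Tbx3 are known to repress, were not called there. Cdkn2a was at 5.50 ± 0.12 in Oral and 5.23 ± 0.16 in Cranial, and Cdkn1a at 10.80 ± 0.30 in Oral and 10.51 ± 0.07 in Cranial (limma adjusted p = 0.891 and 0.943). In EPF against ENF, none of these 15, 13 and 7 genes was called by limma.

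Over the 12 site arrays, the genes closest to a T-box gene were found by the root mean square difference of mean-centred log2 values, for the 5 genes whose site means spanned at least 1. For Tbx2 these were Vat1l (0.18) and Dach2 (0.24), where Tbx2 itself varied by 0.97 about its mean on the same measure. For Tbx3 they were Entpd3 (0.64) and Eno3 (0.67), against a variation of 1.11. For Tbx15 they were Ppm1h (0.16) and Fbxo25 (0.17), against 0.62. For Tbx1 they were Bdh2 (0.21) and Ramp3 (0.22), against 0.49, and for Tbx5 Trim62 and Gprc5c (0.22 each), against 0.47. These are the nearest of 18193 genes and share the arrays' normalization, so they are a description with no test.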

How the data were processed

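Expression was measured in 18 arrays, 3 for each of EPF, ENF, Oral, Cranial, Ventral and Dorsal, grouped by sample title. The authors deposited log2 values, normalized by RMA with quantile normalization in R, per the labels and the series' own design text; whether this was 1 run and with which versions is not given in the sources used here. Of 45101 probe sets, 64 controls were set aside and 34945 carried 1 gene symbol (932 several, 9160 none), which gave 18193 genes, each by its probe set with the highest mean. Depth has no counterpart on arrays, where the number of arrays limits the precision.

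Differences were tested by lmFit and eBayes (limma 3.58.1, R 4.3.3). P-values were adjusted over the 18193 genes by the Benjamini-Hochberg method, and an adjusted p under 0.05 was a call. The 12 site arrays shared 1 fit, and EPF against ENF and EPF against Dorsal used their 6 arrays. Errors of differences are SE and of means SD. The fit was tested on simulated data. The members and lists were chosen with earlier results of these data known, and named list genes are the called ones with the largest change, up to 2 a direction; Cdkn1a, Cdkn2a and comparisons of listed genes beyond that were chosen after their values were seen. T and Tbx10 were not analysed here. Alternatives were another summary of probe sets, a filter on dim genes, array weights, an intensity trend with robust eBayes, a replicate block, quantile normalization, other sets of arrays and leaving out each array. Replicate numbers did not pair the arrays: deviations of same-numbered arrays correlated at -0.38 to 0.30. Promoter windows come from RefSeq. Python 3.11.15, pandas 2.3.3, numpy 2.4.6 and matplotlib 3.10.9 made tables and plots.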

Additional observations from a re-analysis of the deposited data

How the results depend on the processing

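Of 429 recomputed values for the 31 differences that were called or at least 0.5 in size, 353 kept direction and side of the threshold, 46 lost the call, 28 gained one and 2 changed sign: Tbx3 for Ventral against Dorsal at -0.04 without Ventral 1 (up to 0.98 without another array), and Tbx15 for Cranial against Dorsal at -0.03 with the mean of its probe sets. Among 33 smaller differences 39 of 440 values changed sign. Array weights gave 1 T-box call for EPF against ENF, 4 for Oral against Cranial, 1 for Ventral against Dorsal, 5 for Oral against Dorsal, 4 for Cranial against Dorsal, 7 for Oral against Ventral, 6 for Cranial against Ventral and 2 for EPF against Dorsal, while all genes called for Oral against Cranial numbered 1926 against 207. With 18 arrays in the fit 2 were called for EPF against ENF and 2 for EPF against Dorsal, and 460 genes against 56 for EPF against ENF. Leaving out dim genes called 1 for EPF against ENF, and the intensity trend 1 there and 1 for EPF against Dorsal. The mean of probe sets called 1 for Oral against Dorsal and 1 for EPF against Dorsal, and quantile normalization 2 for Cranial against Dorsal. On the 6 arrays of a pair 0 were called for Cranial against Dorsal and 5 for Oral against Ventral. The cause was not tested. Quantile normalization split the genes called for Cranial against Ventral into 1920 higher and 1550 lower, against 2123 and 1128 without it. Leaving out single arrays gave 0 to 1 for EPF against ENF, 1 for Oral against Cranial in every case, 1 to 4 for Oral against Dorsal, 1 to 3 for Cranial against Dorsal, 3 to 4 for Oral against Ventral, 1 to 2 for Cranial against Ventral and 0 to 1 for EPF against Dorsal. Counts over all genes then ran from 4 to 130 for EPF against ENF, 3 to 161 for Ventral against Dorsal and 1645 to 6148 for Cranial against Dorsal. With the replicate number as a block, T-box calls were 0 for EPF against ENF, 3 for Oral against Cranial, 0 for Ventral against Dorsal, 2 for Oral against Dorsal, 1 for Cranial against Dorsal, 3 for Oral against Ventral, 3 for Cranial against Ventral and 0 for EPF against Dorsal; Tbx15 (0.0529, Oral against Dorsal) and Tbx1 (0.0513, Cranial against Ventral) missed the threshold of the limma adjusted p, and 21 genes were called for EPF against ENF. Means near background limit what can be said of Tbx2 and Tbx20.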
